A study of Mus musculus with 6 samples.

Results

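The genes described here encode the machinery that shortens the poly(A) tails of stored maternal mRNA: the CCR4-NOT complex subunits Cnot1, Cnot2, Cnot3, Cnot6, Cnot6l, Cnot7 and Cnot8, the Pan2 and Pan3 pair, and the adaptor Btg4. They were chosen by name, as the probe sets that the platform annotation gives to 1 of these 10 symbols alone. The choice left 27 probe sets of 9 genes, among 45037 probe sets on the array. Both probe sets annotated to Cnot1, the scaffold of the complex (2 in all), carry a second symbol, so Cnot1 was not analysed here. A filter on low values, at or above the array median on at least 3 of 6 arrays, kept 22 of the 27 probe sets. Each of the 9 genes had at least 1 kept probe set, and 0 of the 9 lie on the X or Y chromosome.

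Expression was compared between fully grown germinal vesicle (GV) oocytes of XY females and of their XX littermates in the mouse strain B6.Y(TIR), whose XY animals can develop ovaries. All females were 25 to 29 days old and had received 5 IU of equine chorionic gonadotropin 45 to 47 hours earlier, so both groups carry that stimulation. Each array was made from 10 oocytes freed of cumulus cells, with 3 XX and 3 XY arrays labelled as biological replicates. The sample records list 3 females per group, and their division over the arrays was not analysed here. Because every array pools oocytes, fewer oocytes holding a transcript and less of it per oocyte cannot be told apart. XY and XX oocytes differ both in the Y chromosome and in the number of X chromosomes, and the 2 groups of arrays do not separate these.

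A grown oocyte is transcriptionally quiet and lives on mRNA made during growth. Many of these transcripts are kept with short tails and little translation until meiosis resumes, when some tails are extended and the bulk of the maternal mRNA is deadenylated and cleared. In CCR4-NOT, the nucleases Cnot6 and Cnot6l and the nucleases Cnot7 and Cnot8 are alternative partners that remove adenosines, and Cnot2 and Cnot3 form a module that docks onto Cnot1. Pan2 is a separate nuclease that Pan3 brings to tails coated with poly(A)-binding protein. Btg4 is an oocyte adaptor that links CCR4-NOT to maternal mRNA during maturation, and the mRNAs of Cnot7 and Cnot6l are themselves stored in the GV oocyte for translation at maturation.

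The arrays were not alike within XX. The 5' control of Actb read 45.8 in XX 1, 184 in XX 2 and 188 in XX 3, against 54.7 to 62.7 over the XY arrays. For 18S rRNA the 5' control was 626 in XX 1 but 3236 and 3620 in XX 2 and XX 3, against 573.6 to 896.5 over the XY arrays. XX 1 thus lay with the XY arrays in both controls. The 10 oocyte markers (among them Zp3, Gdf9 and Nlrp5) all passed the filter, and their summed normalized intensity was 92343 to 96553 in XX and 85452 to 90641 in XY. By limma 1 of the 10 passed (10%), where 13.2% of all genes did. This was Bmp15, an oocyte growth factor gene, which was lower in XY (log2 change -1.34, limma's adjusted p = 0.0101). Of 12 granulosa and cumulus markers 11 were measured and 8 passed the filter, and Amh, Inhba and Ptx3 did not. Their summed intensity was 1261 to 1561 in XX and 1451 to 1570 in XY, most of it from Nr5a2, which averaged 950.2 in XX and 671.1 in XY before normalization. By limma 1 of the 8 passed (12.5%, against 13.2% of all genes). The inhibin subunit gene Inha was higher in XY (log2 change 1.58, limma's adjusted p = 0.0475). Its intensities were 38.1 to 113.7 in XX and 153.7 to 269.7 in XY. Fshr had a change of 0.89 and Kitl one of -0.63, and neither passed (0.108 and 0.0715). Of the theca and stroma markers, 3 of 6 passed the filter and 0 the test, with sums of 132.1 to 188.3 in XX and 298.4 to 410.1 in XY. Among these 3, Dcn had a log2 change of 1.85 and its groups did not overlap. Its adjusted p in limma's fit, 0.05 after rounding, was not under the threshold. Dcn averaged 61.8 in XX and 218 in XY before normalization. Star and Col1a2 had changes of 0.76 and 0.08. Of 5 blood markers 4 were measured and 2 passed the filter, with sums of 90.9 to 103 in XX and 131 to 147 in XY, and the macrophage gene Cd68 was higher in XY (0.59, limma's adjusted p = 0.0392). With XX 1 as the lone XX array the changes were -0.97 for Bmp15, 0.59 for Inha and 0.73 for Cd68. Bmp15 passed in 18 of 20 alternatives, Inha in 11 of 20 and Cd68 in 6 of 19. The calls of Inha and Cd68 were lost when XX 2, XX 3, XY 1, XY 2 or XY 3 was left out. Limma's adjusted p was then 0.141, 0.132, 0.123, 0.121 and 0.0919 for Inha, and 0.0882, 0.0852, 0.115, 0.131 and 0.103 for Cd68. The part of these differences in the results below was not tested.

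Pan3, which brings Pan2 to poly(A) tails, was called lower in XY than in XX oocytes at its brightest probe set, and the other 8 of the 9 genes did not pass. The call of Pan3 held in 9 of 20 alternatives and was lost without XX 2, XX 3, XY 1, XY 2 or XY 3. By limma with Benjamini-Hochberg adjustment over 12442 genes, 1 of the 9 genes was lower and 0 were higher in XY oocytes at an adjusted p under 0.05. Over all genes tested, 5.34% passed as lower, 7.86% as higher and 13.2% in either direction, so the share of 11.1% was near the background. The other 8 genes had log2 changes from -0.38 to 0.39, and the outermost bounds of their 95% confidence intervals were -0.81 and 0.77. The median log2 change of the 9 genes was -0.17, where that of all genes was 0.07. The deposited values gave medians of -0.43 for the 9 genes and -0.12 for all genes. Scaling to a common median gave -0.60 and -0.27, and scaling to a common trimmed mean gave -0.12 and 0.18. The medians lay closer together with the Actb 3' to 5' ratio as a covariate, at -0.03 and 0.04. With XX 1 as the lone XX array they were -0.01 and 0.03. Over all genes 978 were higher and 665 lower, a split of 472 to 529 for the deposited values, 482 to 1622 under median scaling and 1423 to 586 under trimmed mean scaling. The count of 1643 genes called was 3250 when XX 1 was left out, and 617, 599, 593, 503 and 565 when XX 2, XX 3, XY 1, XY 2 or XY 3 was.

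**Figure D1:**
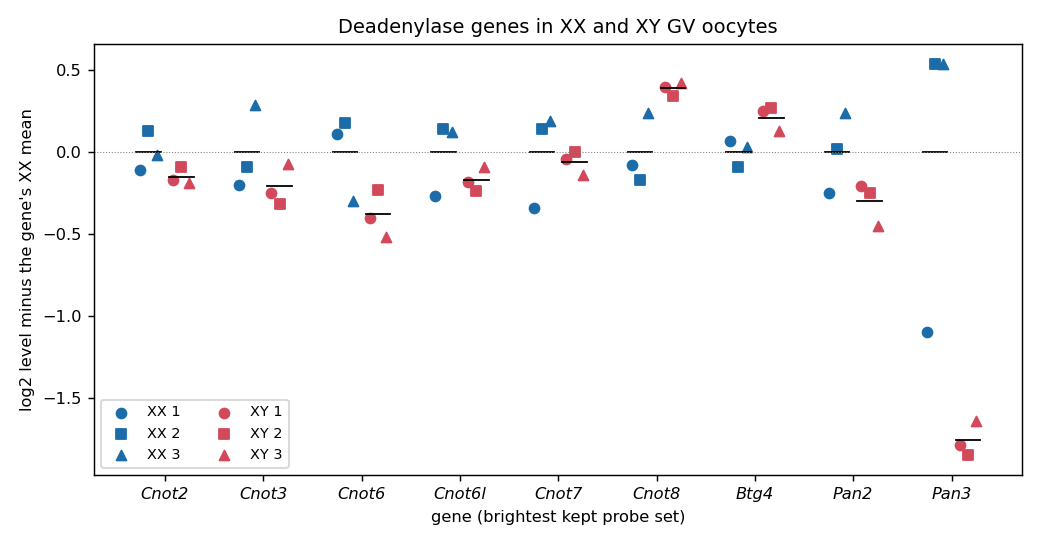
Level of each of the 9 genes on each of 6 arrays, as log2(quantile-normalized intensity + 9) minus the gene's mean over XX arrays; blue is XX, red is XY, the marker shape gives the replicate, and bars are group means. Pan3 shows the widest gap between groups and the widest spread within XX, with XX 1 apart from XX 2 and XX 3; Cnot8 and Btg4 are the genes whose XY values all lie above XX.

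The structural subunits of CCR4-NOT showed small differences that did not pass. Cnot2, part of the docking module, had deposited intensities of 5531, 7974 and 7908 on the XX arrays, in the order of replicates 1 to 3 used throughout, and of 6245, 4771 and 4754 on the XY arrays. After normalization XX had a log2 level of 12.67 ± 0.12 and XY one of 12.52 ± 0.05 (SD, n = 3 each), a log2 change of -0.15 with a 95% interval of -0.48 to 0.19 (limma's adjusted p = 0.502). The groups overlapped. Its other 3 kept probe sets had log2 changes of -0.03, -0.25 and -0.26, none of which passed. The 2 Cnot2 probe sets that failed the filter, 1445017_at and 1447212_at, read 2.3 to 39.5 and 1.6 to 13.1 over the 6 arrays.

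Cnot3, the partner of Cnot2 in that module, read 1087, 1708 and 2557 in XX and 1339, 909.5 and 1159 in XY. XX 3 was the highest array and the groups overlapped. The log2 change was -0.22 ± 0.18 (SE), with an interval of -0.64 to 0.21 (limma's adjusted p = 0.442). Its dimmer probe set 1441465_at read 28.2 to 48.7 in XX and 17.2 to 36.5 in XY, with a log2 change of -0.55 and an adjusted p of 0.179 in limma's fit over probe sets.

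The catalytic subunits Cnot6 and Cnot6l each had 1 probe set that fell in XY oocytes while the brightest probe set of the same gene did not pass. For Cnot6, the brightest probe set 1426683_at read 870, 1316 and 1089 in XX and 774.7, 639.2 and 553.7 in XY. On these deposited values all 3 XY arrays lay below XX, but after normalization the groups overlapped, with XX 3 at 9.64 and XY 2 at 9.71. The log2 change was -0.38, with an interval of -0.81 to 0.05 (limma's adjusted p = 0.195). It passed in 1 of 20 alternatives, median scaling, at -0.88 (adjusted p = 0.0285).

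Probe set 1426685_a_at of Cnot6, whose suffix marks probes shared by several transcripts of 1 gene, read 256.1, 499.1 and 479.4 in XX and 213, 127.3 and 146.6 in XY. Every XY array was below every XX array, and XX 1 was the lowest of the XX arrays. Its log2 level fell from 8.54 ± 0.21 to 7.49 ± 0.20 (SD, n = 3 each), a change of -1.05 ± 0.19 (SE) with limma's adjusted p = 0.0203 over 22997 probe sets. A further probe set, 1426682_at, had a log2 change of 0.10 (interval -0.29 to 0.48). The change of 1426685_a_at was -0.93 without XX 2 (adjusted p = 0.0712), -1.07 without XX 3 (0.0680), -0.96 without XY 2 (0.0746) and -1.03 without XY 3 (0.0715), none of which passed. It was -0.86 with XX 1 as the lone XX array. The fourth Cnot6 probe set, 1426684_at, failed the filter and read 23.3 to 54.1 in XX and 8.8 to 27.6 in XY.

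Cnot6l, the paralogue of Cnot6, read 7870, 12272 and 12677 in XX and 9334, 6571 and 8105 in XY at its brightest probe set, 1425480_at. On these deposited values XX 1 fell among the XY arrays. After normalization it was the lowest array, at 13.01 against 13.04 to 13.19 in XY. The log2 change was -0.17, with an interval of -0.56 to 0.22 (limma's adjusted p = 0.521). Probe sets 1425481_at and 1451723_at had changes of -0.22 and -0.36, and neither passed.

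The dimmest Cnot6l probe set, 1434311_at, read 110.5, 240.9 and 203.1 in XX and 86.6, 72.2 and 77.7 in XY. The groups did not overlap, and again XX 1 was the lowest XX array. The log2 level fell from 7.45 ± 0.31 to 6.47 ± 0.04 (SD, n = 3 each), a change of -0.98 ± 0.20 (SE, limma's adjusted p = 0.0257). With the deposited values it did not pass (-1.08, limma's adjusted p = 0.0644). The change was -0.70 with XX 1 as the lone XX array. Leaving out XX 2, XX 3, XY 1, XY 2 or XY 3 gave changes between -1.01 and -0.82, with adjusted p of 0.0744, 0.0800, 0.0741, 0.0880 and 0.0786.

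Cnot7 and Cnot8, the other pair of alternative nucleases, did not pass in any probe set. Cnot7 read 8652, 13802 and 14944 in XX and 12072, 9250 and 9266 in XY at probe set 1423641_s_at, whose suffix marks probes shared with transcripts of other genes. XX 1 was the lowest of all 6 arrays. The log2 change was -0.05, with an interval of -0.49 to 0.38 (limma's adjusted p = 0.856), and its sign turned under trimmed mean scaling (0.05) and when its probe sets were averaged (0.16).

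A different Cnot7 probe set, 1460665_a_at, divided the arrays in another way. Its normalized log2 level was 9.96 in XX 1 but 8.86 in XX 2 and 8.91 in XX 3, against 9.86, 9.87 and 9.59 on the XY arrays. XX 1 was thus the highest array, beside the XY arrays, and XX 2 and XX 3 were low. The change over all arrays was 0.53 ± 0.31 (SE, limma's adjusted p = 0.287). Without XX 1 it was 0.89 and passed (0.0185), and with XX 1 as the lone XX array it was -0.19. The remaining Cnot7 probe set, 1430519_a_at, had a change of 0.01 (interval -0.44 to 0.46).

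Cnot8 had normalized log2 levels of 10.66, 10.57 and 10.98 in XX and 11.14, 11.08 and 11.16 in XY. All XY arrays lay above all XX arrays, a separation that 38.8% of all genes showed in one direction or the other. The change was 0.39 ± 0.16 (SE, limma's adjusted p = 0.145), and -0.14 with median scaling. On the deposited scale the groups overlapped, at 1324 to 2756 in XX and 1617 to 2360 in XY. The second Cnot8 probe set, 1421135_a_at, had a change of 0.07 (interval -0.57 to 0.72).

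Btg4 was read by 1 probe set, with deposited intensities of 13947, 13784 and 15600 in XX and 17306, 13853 and 13711 in XY. These values stood at 59.4% to 78.7% of the highest intensity on the same array, so the signal was near the top of the measured range. The normalized log2 level of XX was 13.73 ± 0.08 and that of XY 13.94 ± 0.08 (SD, n = 3 each), and after normalization the XY arrays lay above XX. The change of 0.21 had an interval of -0.12 to 0.54 (limma's adjusted p = 0.332) and was -0.12 with median scaling.

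Pan2, the nuclease of the second complex, had 1 kept probe set and read 1296, 2283 and 3027 in XX and 1689, 1173 and 1095 in XY. On these deposited values XX 1 lay between XY 1 and XY 2. The log2 change was -0.31 ± 0.18 (SE), with an interval of -0.72 to 0.11 (limma's adjusted p = 0.268).

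Pan3, the subunit that recruits Pan2, fell in XY oocytes at its brightest probe set, 1447895_x_at. Intensities were 457.8 in XX 1, 2106 in XX 2 and 2443 in XX 3, against 367.6, 257.9 and 319.7 in XY 1, XY 2 and XY 3. XX 2 and XX 3 were far above the other 4 arrays, and XX 1 was a little above XY. XX had a log2 level of 10.26 ± 0.95 and XY one of 8.50 ± 0.11 (SD, n = 3 each), a change of -1.76 ± 0.43 (SE, limma's adjusted p = 0.0399). The suffix of this probe set marks probes that can also bind unrelated transcripts.

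The other kept Pan3 probe set, 1428768_at, also had every XY array below every XX array, but it ordered the XX arrays the opposite way. It read 615, 513.2 and 570.3 in XX and 315.9, 217.2 and 290.3 in XY. After normalization XX 1 was the highest, at 9.58, above XX 2 and XX 3 at 8.81 and 8.74 and XY at 8.14 to 8.47. The change of -0.75 ± 0.25 (SE, interval -1.35 to -0.16) did not pass in limma's fit over probe sets (adjusted p = 0.0986), but passed on the deposited scale (-1.03, adjusted p = 0.0474) and under median scaling (-1.19, 0.0149). With XX 1 as the lone XX array it was -1.29, against -0.66 for 1447895_x_at. The remaining Pan3 probe sets, 1437883_s_at and 1458465_at, failed the filter and read 0.3 to 15.6 and 7.6 to 32.3.

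The change of 1447895_x_at was smaller without the 2 arrays whose 5' controls were high. With XX 1 as the lone XX array it was -0.66. With the Actb 3' to 5' ratio as a covariate it was -0.79 (limma's adjusted p = 0.213), a setting in which 236 of all genes passed. Leaving out XX 2 or XX 3 gave -1.48 (0.120 and 0.125), and leaving out XY 1, XY 2 or XY 3 gave -1.74, -1.71 and -1.82 (0.101, 0.107 and 0.0927). With the probe sets whose suffix marks shared probes left out, 1428768_at stood for Pan3 and the change was -0.75 (adjusted p = 0.0865). The direction was negative in all 20 alternatives, from -2.30 to -0.66, and the call held in 9 of them. Every XY array lay below every XX array, so leaving out arrays could not turn this sign. A changed filter, a trended variance or the replicate block left the change at -1.76.

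**Figure D2:**
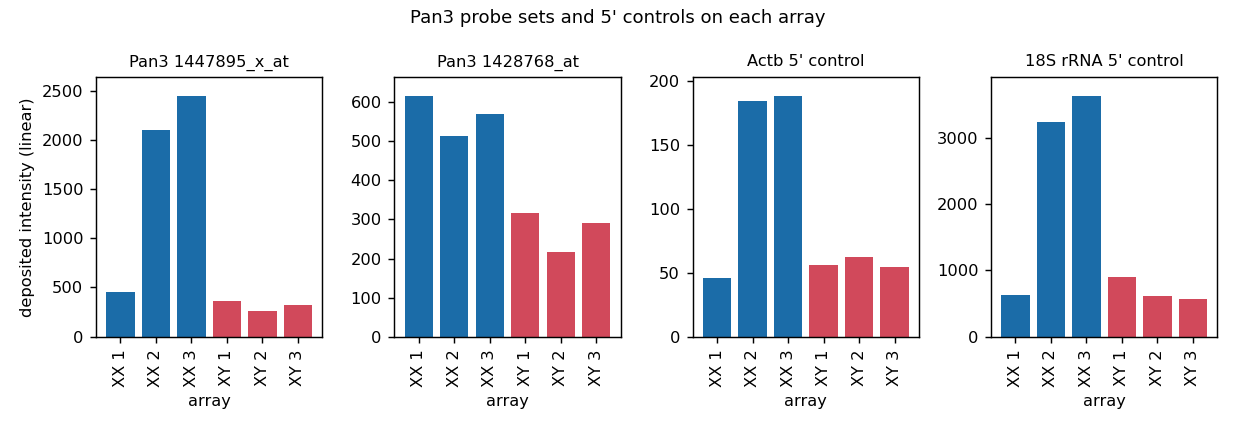
Deposited linear intensity on each array (blue bars XX, red bars XY) for both kept Pan3 probe sets and for the 5' controls of Actb and 18S rRNA. Probe set 1447895_x_at and both controls are high in XX 2 and XX 3 and low in XX 1, whereas 1428768_at is high in all 3 XX arrays, at 513.2 to 615 against 217.2 to 315.9 in XY.

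Across the 22 kept probe sets, 3 fell and 0 rose in XY oocytes, where 5.41% of all 22997 probe sets passed as lower, 5.08% as higher and 10.5% in either direction. The XX and XY values did not overlap in 8 of the 22, against 36.6% of all probe sets, and 6 of the 22 had XY below, against 18.1% of all probe sets. The median log2 change was -0.22, where that of all probe sets was 0.01. The count of 3 became 5 with median scaling and 0 without a filter, and it was 4 when XX 1 was left out, 1 when XY 1 was, and 0 when XX 2, XX 3, XY 2 or XY 3 was.

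Probe sets of 1 gene were compared directly by the per-array log2 difference between each and the brightest of its gene, in 13 pairs. For Cnot6, 1426685_a_at minus 1426683_at averaged -1.40 ± 0.28 over XX and -2.07 ± 0.29 over XY arrays (SD, n = 3 each). For Cnot6l, 1434311_at minus 1425480_at was -5.83 ± 0.18 in XX and -6.64 ± 0.04 in XY. The groups did not overlap in either pair, and in 5 of the 13 in all, where 28.0% of the 7826 such pairs over all genes did not overlap. The exact two-sided permutation p was 0.1 for these 5, the smallest that 3 arrays against 3 can give, or 0.26 adjusted over the 13 pairs. For Pan3, 1428768_at minus 1447895_x_at was 0.41 in XX 1 and -1.99 and -2.06 in XX 2 and XX 3, against -0.27 to -0.15 in XY (exact permutation p = 0.4). Neither the position of the probes along the transcripts nor the isoforms they bind was analysed here.

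**Figure D3:**
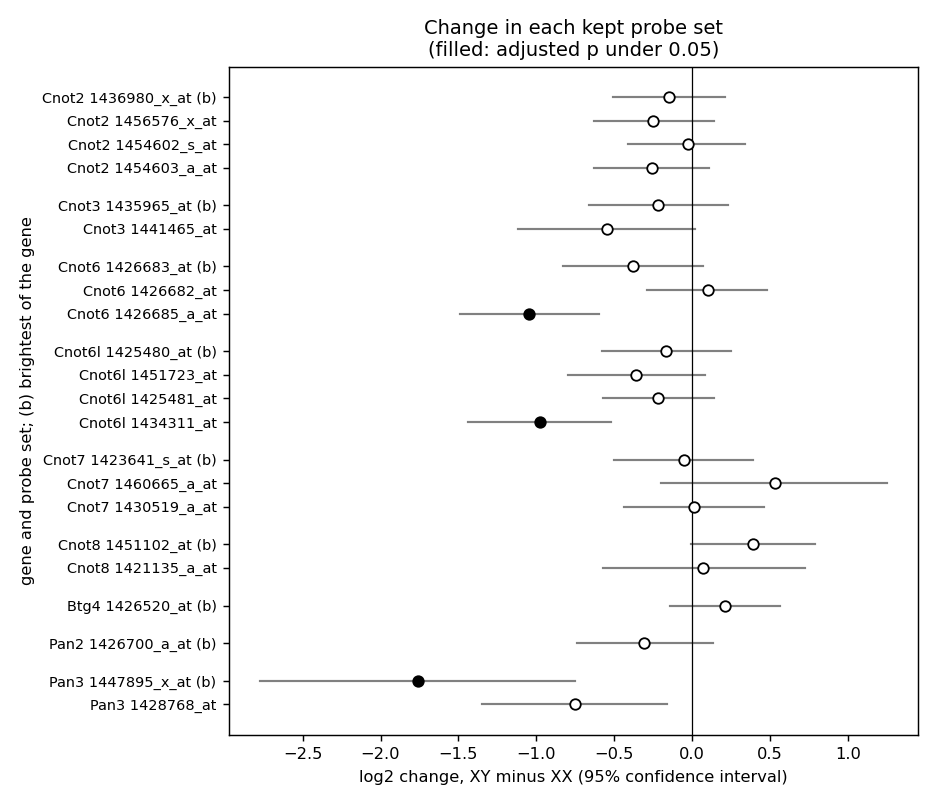
Log2 change, XY minus XX, of each of the 22 kept probe sets with its 95% confidence interval, grouped by gene from the brightest probe set (b) down; filled points have an adjusted p under 0.05 over 22997 probe sets. The filled points are 1426685_a_at of Cnot6 (-1.05), 1434311_at of Cnot6l (-0.98) and 1447895_x_at of Pan3 (-1.76), and the other probe sets of Cnot6 and Cnot6l lie nearer 0.

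Array XX 1 lay nearer the XY mean than the mean of XX 2 and XX 3 in 6 of the 9 genes: Cnot2, Cnot3, Cnot6l, Cnot7, Pan2 and Pan3. Of all genes, 50.2% did so. For Cnot6, Cnot8 and Btg4 it lay nearer XX 2 and XX 3.

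The 5 genes whose pattern over the 6 arrays was most like that of Pan3 were Sec24a, Ube2q2, Glipr1, Stag2 and Zfp616. Likeness was the root mean square distance between log2 values centred on each gene's mean, and it was 0.13 for Sec24a and 0.16 for the other four. Their log2 changes were -1.56, -1.69, -1.69, -1.60 and -1.67. Of these, Ube2q2, Glipr1 and Zfp616 passed limma's test (adjusted p = 0.0245, 0.0194 and 0.0402), and Sec24a and Stag2 did not (0.0691 and 0.0718). The genes were chosen on the same 6 arrays, so changes and test results near those of Pan3 follow from the choice. They are not separate evidence on Pan3.

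Other genes of deadenylation and decay were taken in 7 lists of 83 genes, of which 73 were tested. By limma, 3 were higher and 5 lower in XY oocytes, or 11.0% against 13.2% of all genes, of which 7.86% were higher and 5.34% lower. The deposited values gave 1 higher and 5 lower, and median scaling 1 and 18. The median log2 change was 0.01, against 0.07 for all genes. By list, in the order given next, it was -0.06, 0.00, 0.14, -0.41, -0.22, 0.06 and 0.11.

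Of the other CCR4-NOT subunits, 0 of 4 passed the test, where 13.2% of all genes passed in either direction. Cnot9 had a log2 change of 0.33 (adjusted p = 0.174), which was -0.16 with median scaling, and Cnot10 one of -0.24 (0.282), which was 0.09 when its probe sets were averaged. The BTG and TOB adaptors, relatives of Btg4, had 0 of 4 past the test, with Tob1 at -0.36 and Btg1 at 0.11, the latter -0.42 with median scaling. Of 6 other poly(A)-specific nucleases, Toe1, which trims tails in the nucleus, rose by 1.15 ± 0.22 (SE, limma's adjusted p = 0.0197), from intensities of 40.6 to 88.1 in XX to 128.9 to 163.6 in XY. Its other probe set had a change of 0.40 and did not pass. Toe1 did not pass without XX 3 (limma's adjusted p = 0.0633), XY 2 (0.0661) or XY 3 (0.0682), or when its 2 probe sets were averaged (0.77, 0.0734). With XX 1 as the lone XX array its change was 1.52. Parn, the poly(A)-specific ribonuclease, had a change of 0.58 (0.0835).

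Of 13 RNA-binding recruiters of deadenylases, 2 fell and 0 rose, or 15.4% against 13.2% of all genes in either direction. Tnrc6c, a microRNA effector that binds both CCR4-NOT and Pan3, fell by 1.19 ± 0.21 (SE, limma's adjusted p = 0.0166), and both of its probe sets passed. It read 359.8, 744.7 and 529.8 in XX and 203.3, 161.6 and 198.5 in XY. Zfp36l1, a binder of AU-rich elements, fell by 1.21 ± 0.27 (SE, limma's adjusted p = 0.0316). It was dim, at 73.9, 180 and 169.7 in XX and 71.2, 51.5 and 34.5 in XY, with XX 1 close to XY 1. Tnrc6c did not pass without XY 1 (0.0595) or XY 2 (0.0600), and Zfp36l1 did not without XX 2, XX 3, XY 1, XY 2 or XY 3 (0.0996, 0.105, 0.0536, 0.0826 and 0.0908). Adjusting for the Actb ratio gave changes of -1.06 and -0.84, with limma's adjusted p of 0.119 and 0.226. With XX 1 as the lone XX array the changes were -1.08 and -0.76.

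Among genes that add or bind poly(A), 1 of 13 rose and 2 fell, or 23.1% against 13.2% of all genes. Pabpn1l encodes a poly(A)-binding protein of the oocyte and fell by 1.61 ± 0.21 (SE, limma's adjusted p = 0.00752), from intensities of 5013 to 9076 in XX to 1356 to 1808 in XY, and passed without each single array. With the Actb ratio as a covariate its change was -1.56 and did not pass (limma's adjusted p = 0.0661). Only 236 of all genes passed in that setting, against 1643 in the main fit. With XX 1 as the lone XX array the change of Pabpn1l was -1.53. Cpeb1, which directs cytoplasmic polyadenylation, fell by 0.86 ± 0.21 (0.0390). Pabpc1, the general cytoplasmic poly(A)-binding protein gene, rose by 1.24 ± 0.27 (0.0284), but did not pass with the deposited values (0.89, adjusted p = 0.0672) or median scaling (0.73, 0.0742). With the Actb ratio as a covariate the change was -0.65 for Cpeb1 and 0.91 for Pabpc1 (limma's adjusted p = 0.237 and 0.202). With XX 1 as the lone XX array these changes were -0.52 and 0.85. Without XX 2, XX 3, XY 1, XY 2 or XY 3, the adjusted p was 0.110, 0.113, 0.0696, 0.125 and 0.109 for Cpeb1 and 0.0895, 0.0902, 0.0539, 0.0710 and 0.0766 for Pabpc1.

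Of 16 genes of decapping and decay from the 5' end, 1 fell, or 6.25% against 13.2% of all genes in either direction. This was the exonuclease gene Xrn1, by 1.44 ± 0.32 (SE, limma's adjusted p = 0.0295). Its other kept probe set had a change of -0.41 and did not pass, and the mean of both was -0.93 (adjusted p = 0.0362). The probe set that stood for Xrn1, 1450308_a_at, read 59.8 in XX 1 and 157 and 210.8 in XX 2 and XX 3, against 31.3 to 50.7 in XY. Its normalized log2 level was 6.34 in XX 1, against a mean of 5.56 in XY. With XX 1 as the lone XX array the other probe set was the brighter and stood for Xrn1, with a change of -0.20. With the Actb ratio as a covariate the change of 1450308_a_at was -0.92 (limma's adjusted p = 0.213). Patl2, an oocyte translational repressor gene, had a change of 0.70 (0.0688). Of 17 genes of uridylation and decay from the 3' end, 1 rose, or 5.88% against the same 13.2%. This was Tut4, an uridylyltransferase gene, by 0.54 ± 0.14 (limma's adjusted p = 0.0465). Its intensities were 29.1 to 31.9 in XX and 47.8 to 61.9 in XY. Tut4 did not pass in the fit over probe sets, and it passed in 6 of 19 alternatives. It did not pass with the deposited values (0.64, limma's adjusted p = 0.154), median scaling (0.51, 0.144), a trended variance (0.54, 0.167) or the pseudocount at the median (0.39, 0.0819). The Actb ratio as a covariate gave 0.46 (0.202), and XX 1 as the lone XX array gave a change of 0.47. Exosc9, an exosome subunit gene, had a change of 0.85 (0.0646). Without XX 2, XX 3, XY 1, XY 2 or XY 3, neither called gene passed, with adjusted p of 0.0980, 0.0925, 0.0836, 0.0919 and 0.0539 for Xrn1 and of 0.120, 0.116, 0.140, 0.130 and 0.115 for Tut4. The count of 8 called genes over the 7 lists was 20 when XX 1 was left out, 3 for XX 2 or XY 3, 2 for XX 3 or XY 1, and 1 for XY 2.

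**Figure D4:**
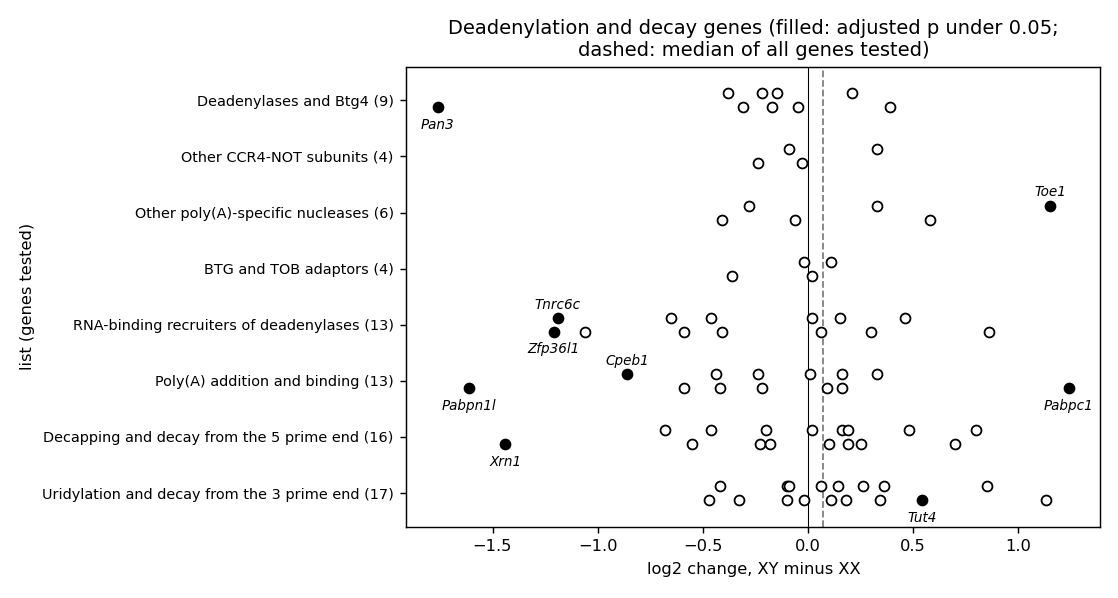
Log2 change, XY minus XX, of each tested gene among the deadenylases with Btg4 (9 genes) and in 7 lists of related genes; filled points have an adjusted p under 0.05 over 12442 genes, and the dashed line is the median of all genes, 0.07. Pan3 (-1.76) is the filled point of the first row, and the other filled points are Toe1, Tnrc6c, Zfp36l1, Pabpn1l, Cpeb1, Pabpc1, Xrn1 and Tut4. Of these, Pabpc1 and Tut4 did not pass with the deposited values or median scaling.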

How the data were processed

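The deposited table gives 1 linear intensity per probe set and array. The submitters' processing notes name MAS5 alone. Its version and target value are not given in the sources read here. Array medians ran from 24.5 to 31.4 and trimmed means from 194 to 332, so the 45037 probe sets other than 64 controls were quantile-normalized, in place of assuming a common scale. Levels are log2(normalized intensity + 9), 9 being the 25th percentile over all deposited intensities. Changes of dim genes are understated on this scale. Filtering kept 22997 probe sets, and the one with the highest mean stood for each of 12442 genes, named through the platform annotation and, by gene ID, the RefSeq table of GRCm38.p6 (34741 of 34945 matched). The contrast of XY against XX was fitted with lmFit and eBayes (limma 3.58.1, R 4.3.3) on all genes, and separately on all kept probe sets, with Benjamini-Hochberg adjustment at 0.05. The fit over genes was tested on simulated data, and the exact permutation test on made-up values. The other steps were not tested in this way.

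The members and lists were chosen with earlier results of these data known. The text names all members, in the 7 lists of related genes those past the test and the 2 smallest p of each and the 5 genes most like the member with the smallest p. Cnot7 probe set 1460665_a_at and Pan3 probe set 1428768_at were followed through the alternatives after their values were seen. The markers Bmp15, Inha, Cd68, Nr5a2, Fshr, Kitl, Dcn, Star and Col1a2 were also named after their values were seen. Alternatives changed the scaling, the pseudocount, the filter, the threshold, the choice of probe set and the variance model, or used array weights, a replicate block, the Actb ratio, XX 1 alone or 5 of the 6 arrays. Leaving out probe sets with shared probes was added after seeing the data. Precision is limited by having 3 arrays in each group.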

Additional observations from a re-analysis of the deposited data

How the results depend on the processing

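The sign was the same in every alternative run for Pan3, Pan2, Cnot2, Cnot3 and Cnot6, and for all 8 called genes of the other lists. For Pan3 and these 8 genes the normalized XX and XY values did not overlap. Leaving out arrays could therefore not turn the sign of the same probe set. A changed filter, a trended variance or the replicate block left each change at its main value. The causes of the moves below were not tested unless the setting itself removes arrays. The count of 1 deadenylase gene called became 2 with median scaling and 0 with a pseudocount of 1, no filter, the replicate block, the Actb ratio as a covariate, XX 1 alone, no x or s probe sets or a threshold of 0.01; it was 0 to 1 with single arrays left out. The count of 3 probe sets became 5 with median scaling, 0 with no filter, the replicate block, the Actb ratio or XX 1 alone, and 0 to 4 with single arrays left out. The 8 called genes of the other lists became 19 with median scaling, 3 with no filter, 16 with a trended variance or a threshold of 0.1, 21 with array weights, 4 with the replicate block, 1 with the Actb ratio or a threshold of 0.01, 0 with XX 1 alone, and 1 to 20 with single arrays left out. The 1643 genes called in all became 1001 with the deposited values, 913 with no filter, 3264 with array weights, 679 with the replicate block, 236 with the Actb ratio, 1 with XX 1 alone, 290 and 3019 at thresholds of 0.01 and 0.1, and 503 to 3250 with single arrays left out. Signs turned for uncalled values: Cnot6l was 0.05 with the Actb ratio and 0.10 with XX 1 alone; Cnot7 was 0.05 with trimmed mean scaling, 0.16 as the mean of probe sets, 0.25 with the Actb ratio, 0.28 with XX 1 alone, 0.53 with no x or s probe sets, and -0.22 to 0.04 with single arrays left out. Cnot8 was -0.14 and Btg4 -0.12 with median scaling, and Cnot7 probe set 1460665_a_at was -0.11 with the Actb ratio and -0.19 with XX 1 alone. On the deposited scale Cnot9 was 0.00 and Btg1 -0.26, under median scaling they were -0.16 and -0.42, and Cnot10 was 0.09 as the mean of probe sets. Replicate numbers did not pair the arrays: deviations of same-numbered arrays correlated at -0.10, 0.00 and -0.04 over 12442 genes, so the block values are those of a shared number. With the block the adjusted p was 0.0547 for Pan3, 0.0731 for Zfp36l1, 0.0882 for Cpeb1, 0.0765 for Pabpc1 and 0.110 for Tut4. Without a filter it was 0.0619 for Zfp36l1, 0.0750 for Cpeb1, 0.0564 for Pabpc1, 0.0575 for Xrn1 and 0.0959 for Tut4. The XX 1 alone setting assumes that the lone XX array varies like the XY arrays. Few genes of any kind passed with it or with the Actb ratio, so not passing there did not set a gene apart.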
